A study of Arabidopsis thaliana with 7 samples.

Results

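Transcript levels in seedlings of the SOC1 loss-of-function mutant soc1-2 were compared with those of the Arabidopsis thaliana wild type Col. The comparison used 4 of the 7 arrays of the series, chosen by their titles: 1 array of soc1-2 from experiment 3, the Col array of the same experiment, and the Col arrays of experiments 1 and 2. The titles place soc1-2 and Col of experiment 3 in the same experiment, so differences were taken between those 2 arrays. The other Col arrays served only to show how far wild-type signal ranged. The remaining 3 arrays, of the gain-of-function mutant soc1-101D, helped to set the common scale and the filter on dim probe sets.

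soc1-2 is a knock-out mutant in the Col background that flowers late, according to its label, and it was measured on 1 array. Col was measured on 3 arrays, 1 in each experiment. All were whole seedlings grown for 7 days after germination at 21 °C under 16 h of light and 8 h of dark, and biotin-labelled total RNA was hybridised. The labels do not say how many seedlings went into an array. Because soc1-2 had no replicate, no test was made and no p-value is given. Every value below is the size of a difference between single arrays, set beside the range of the Col arrays.

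The product of SOC1 is a transcription factor of the MADS-box family that gathers signals from day length, vernalisation, gibberellin and the autonomous pathway, and passes them on to the floral meristem identity genes. In wild-type plants it is raised at the shoot apex as flowering begins, and plants without it flower late. Its closest relatives, among them AGL42, AGL71, AGL72 and AGL19, also promote flowering. Only part of a whole seedling is shoot apex. In such bulk samples, fewer cells of a type and less RNA per cell cannot be told apart.

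SOC1 itself (AT2G45660) has no probe set in the gene table, so its level in the mutant was not checked and the genotype is taken from the label. Of the 22746 probe sets, 13513 were paired with 1 gene, 503 with several and 8730 with none, and the last are given by probe set name. The dimmest 40% were left out, which left 13648 tested probe sets, 7276 of them with 1 gene.

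Most probe sets had closely similar signals in soc1-2 and in Col of experiment 3. The differences, as log2(signal + 19.3) of soc1-2 minus Col, had a median of −0.02 and an SD of 0.29 across the 13648 probe sets, and 95.4% lay within 1.5-fold either way. The tail of higher probe sets was longer than that of lower ones. In soc1-2, 92 probe sets (0.674% of those tested) had a signal 2-fold or more above that of Col, and 19 (0.139%) one 2-fold or more below it. At 3-fold the counts were 31 (0.227%) higher and 5 (0.0366%) lower, and at 4-fold 12 (0.0879%) and 2 (0.0147%). With the dim probe sets kept in, 541 (2.38%) of 22746 were 2-fold higher and 391 (1.72%) lower. At 1.5-fold there were 372 (2.73%) higher and 254 (1.86%) lower.

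Brighter probe sets differed less. With the tested probe sets split by mean signal into 5 groups of equal size, the SD of the log2 difference was 0.37 in the dimmest group, then 0.31, 0.28, 0.26, and 0.22 in the brightest. The dimmest group held 34 of the 92 higher probe sets and 5 of the 19 lower ones, against 11 and 1 in the brightest. The plot of difference against signal shows this narrowing. The pseudocount of 19.3, which is 0.1 times the common median of 192.7, keeps the differences of dim genes small. One or both signals of experiment 3 lay under it in 2 of the higher and 4 of the lower probe sets.

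**Figure D1:**
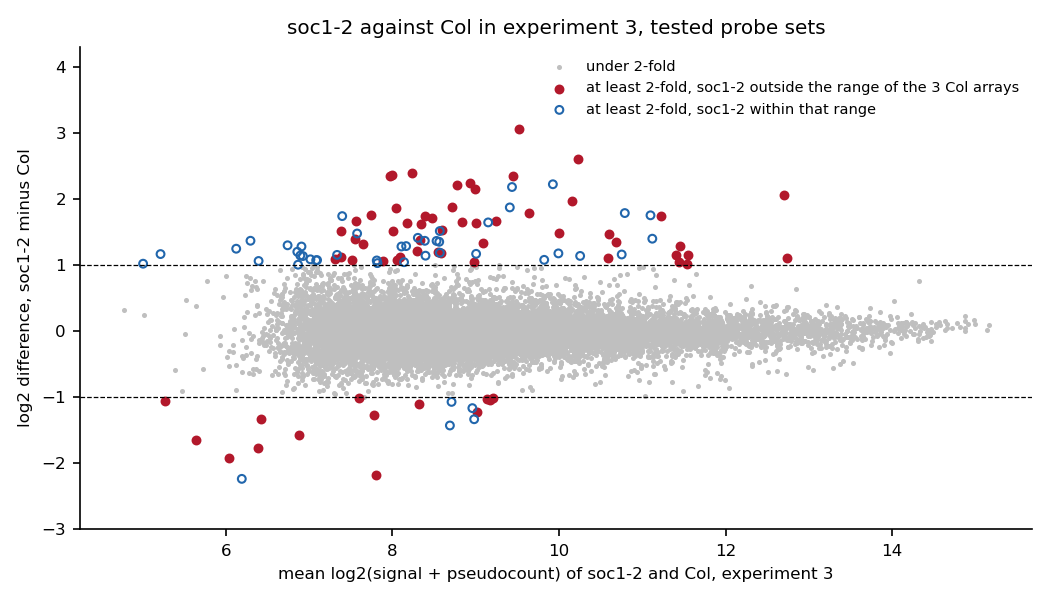
Each point is 1 of 13648 tested probe sets, by the mean log2(signal + 19.3) of soc1-2 and Col of experiment 3 (x) and the log2 difference, soc1-2 minus Col (y). The 92 higher and 19 lower probe sets past 2-fold are filled where soc1-2 lay outside the range of the 3 Col arrays and open otherwise, and the spread narrows as the signal grows.

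Wild-type seedlings of different experiments differed from each other far more than soc1-2 differed from its own Col. Between Col of experiment 2 and Col of experiment 1, 1152 probe sets (8.44%) differed 2-fold or more upward and 1348 (9.88%) downward. Col of experiment 3 set against Col of experiment 1 gave 1453 (10.6%) higher and 1092 (8%) lower, and set against Col of experiment 2 it gave 1219 (8.93%) and 732 (5.36%). The SD of the log2 difference was 0.88 for experiment 3 minus 1, 0.71 for experiment 3 minus 2 and 0.87 for experiment 2 minus 1. The SD of 0.29 between soc1-2 and Col was close to the 0.33 between soc1-101D and Col in experiment 3, a pair that shares the Col array and had 71 probe sets (0.52%) past 2-fold higher and 98 (0.718%) lower.

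A difference within experiment 3 could therefore be large and still lie inside the wild-type range. Of the 92 higher probe sets, 51 (0.374% of those tested) were above all 3 Col arrays and 41 were not. Of the 19 lower ones, 14 (0.103%) were below all 3 Col arrays and 5 were not. Among probe sets of any difference, 2751 (20.2%) had soc1-2 above all 3 Col arrays and 2039 (14.9%) below, so lying outside the range of 3 arrays is common in itself. Against the mean of the 3 Col arrays, 83 of the 92 kept a positive sign and 45 still passed 2-fold. All 19 kept a negative sign, and 9 still passed 2-fold. Among all tested probe sets, 230 passed 2-fold upward and 241 downward on that measure. The mean includes Col of experiment 3, and the soc1-2 array is the same. The choice of probe sets alone thus favoured keeping the sign, so these counts are not an independent check.

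Many of the probe sets that were higher in soc1-2 also differed between wild-type arrays. Col of experiment 2 was the highest of the 3 Col arrays in 75 of the 92, Col of experiment 1 in 13 and Col of experiment 3 in 4. The 92 were picked for a soc1-2 signal above Col of experiment 3, so the choice itself favoured a low count for that array. The same split was not counted over all tested probe sets. In 47 of the 92 (51.1%), Col of experiment 2 was itself at least 2-fold higher than Col of experiment 1, against 8.44% of all tested probe sets; these 47 were 4.08% of the 1152 probe sets with that wild-type difference. In 8 (8.70%) it was at least 2-fold lower. The median log2 difference of Col experiment 2 minus Col experiment 1 was 1.09 over the 92, against −0.04 over all tested probe sets. That wild-type comparison shares no array with soc1-2 against Col of experiment 3. The 19 lower probe sets had a median of −0.30 on the same measure, with 1 (5.26%) past 2-fold upward and 6 (31.6%) past 2-fold downward.

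**Figure D2:**
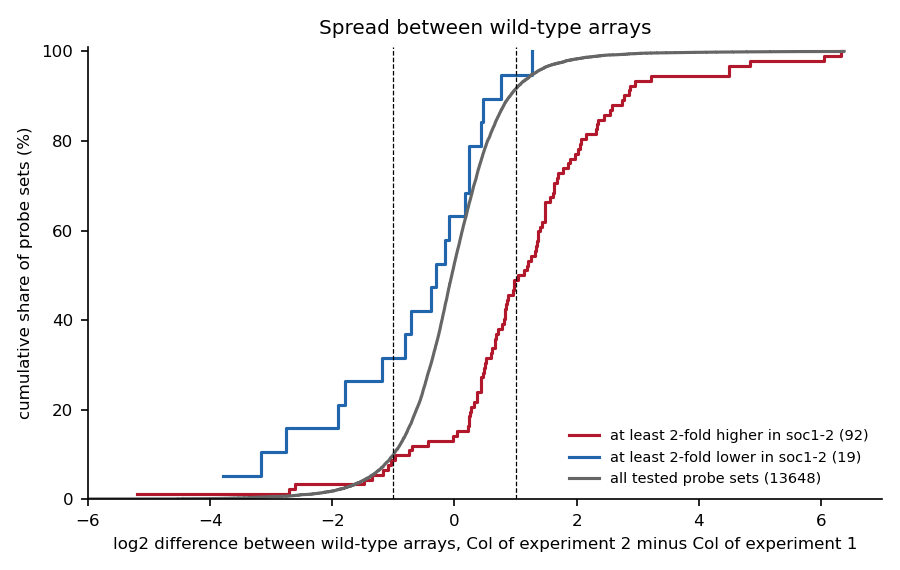
Cumulative share of probe sets (percent) by the log2 difference between wild-type arrays, Col of experiment 2 minus Col of experiment 1. The curve of the 92 probe sets at least 2-fold higher in soc1-2 lies to the right of that of all 13648 tested probe sets, with a median of 1.09, and the 19 lower ones have a median of −0.30.

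Of the 92 higher probe sets, 37 had 1 gene name, and 22 of those lay above all 3 Col arrays. Several of the highest belonged to genes known to respond within minutes to touch, wounding, cold or salt. The list of rapid stress and touch genes had 38 members, with 8 of them named by the gene table and 5 bright enough to be tested. All 5 were at least 2-fold higher in soc1-2 and above all 3 Col arrays, as were 0.374% of all tested probe sets. Their median log2 difference was 1.76, against −0.02 over all tested probe sets. The soc1-101D array of experiment 3, set against the same Col array, had differences from 0.47 to 0.71 over these 5, with a median of 0.60. Both mutant arrays of that experiment thus read above the Col array that they share. The list was drawn up with the largest differences of these data already known, so its count is a description and not support. The other gene lists below were also chosen with earlier results of these data known, and their counts are descriptions too.

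AT4G27280 encodes a calcium-binding EF-hand protein. Its scaled signal was 2947 in soc1-2, against 417, 2170 and 467 in Col of experiments 1, 2 and 3, a log2 difference of 2.61 within experiment 3. STZ (AT1G27730), a zinc-finger repressor induced by salt and cold, had a signal of 1043 in soc1-2, against 178, 982 and 205 in Col (log2 difference 2.24). For both, Col of experiment 2 came close to soc1-2 while the other Col arrays were far lower. STZ lay inside the wild-type range in the values as deposited, with 981 in soc1-2 and 1043 in Col of experiment 2, and after quantile normalization. ORA47 (AT1G74930), an AP2/ERF transcription factor that switches on jasmonate synthesis genes, had 375 in soc1-2, against 88.3, 281 and 97.1 in Col (log2 difference 1.76). The same order of arrays held: soc1-2, then Col of experiment 2, then the other Col arrays.

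AT3G46600, a GRAS-family transcription factor gene, had a signal of 1056 in soc1-2, against 230, 550 and 320 in Col (log2 difference 1.66). EXO (AT4G08950) encodes a protein induced by brassinosteroid that promotes cell expansion in leaves. Its signal was 1690 in soc1-2, against 1120, 664 and 591 in Col (log2 difference 1.49), so here Col of experiment 1 was the nearest wild-type array. CML38 (AT1G76650), a calmodulin-like gene, was too dim on average to be tested and read 191 in soc1-2, against 24.5, 106 and 41.6 in Col. The other dim members, CML37 and WRKY53, had log2 differences of 0.68 and −0.03.

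The genes of a cluster of neighbouring loci, from AT1G72840 to AT1G72950, encode proteins with a TIR domain, the signalling domain of many plant immune receptors. Of its 11 loci 9 were named and 4 tested, and 3 were at least 2-fold higher and above all 3 Col arrays, against 0.374% of all tested probe sets. The cluster was chosen with earlier results of these data known, so this count is a description and not support. AT1G72920 had a signal of 556 in soc1-2, against 66.7, 221 and 93.2 in Col (log2 difference 2.35). AT1G72940 had 789 in soc1-2, against 87.1, 256 and 239 in Col (1.65), and AT1G72900 had 489, against 90.4, 233 and 144 (1.63). In these 3 genes the soc1-2 signal was more than 2 times the highest Col signal. The fourth, AT1G72890, lay inside the wild-type range with 353 in soc1-2, against 452, 162 and 293 in Col (0.25). The 5 dim members had log2 differences from −0.46 to 1.14. Genes of such a cluster can be alike in sequence, and whether their probe sets read each other's transcripts was not tested.

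**Figure D3:**
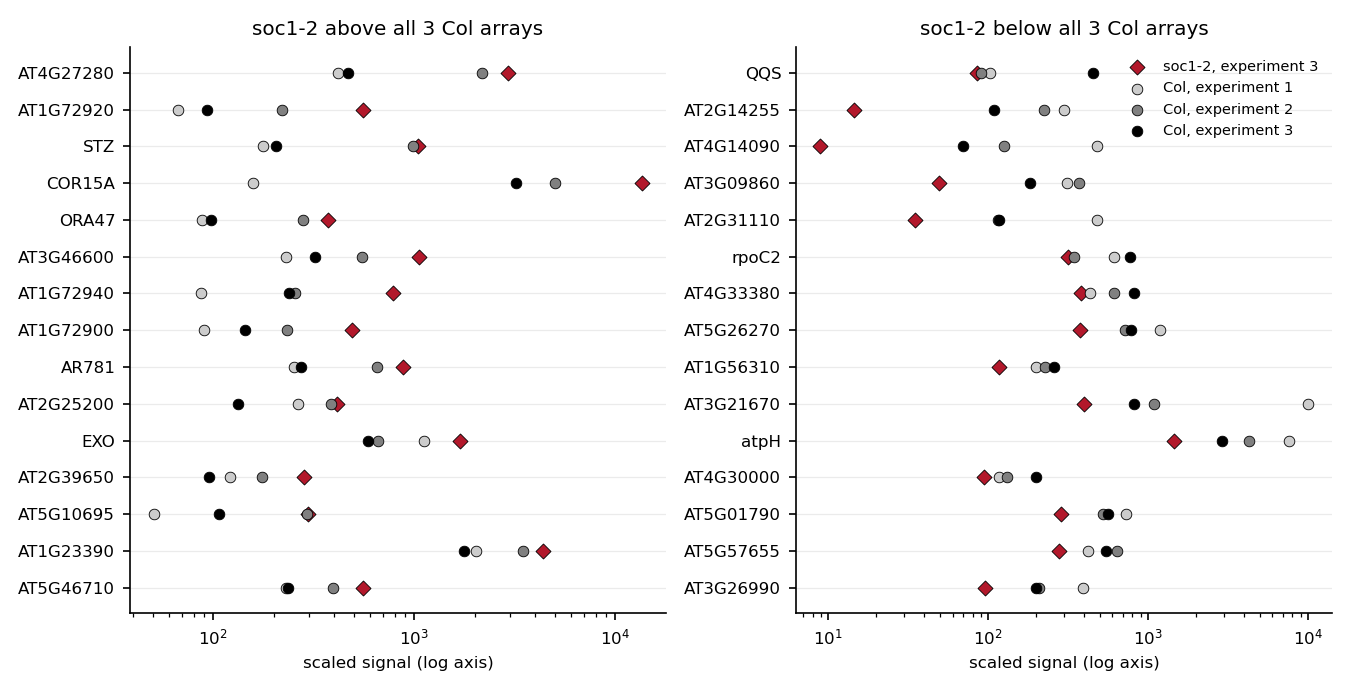
Scaled signal (log axis) of the 15 named genes with the largest positive differences above all 3 Col arrays (left) and the 15 with the largest negative differences below all 3 (right). Diamonds are soc1-2 of experiment 3 and circles are Col, shaded by experiment; Col of experiment 2 is the circle nearest to soc1-2 for most of the genes on the left.

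Other named genes above all 3 Col arrays had scattered functions. AR781 (AT2G26530) read 882 in soc1-2, against 251, 654 and 272 in Col (log2 difference 1.63). AT1G23390 encodes a kelch-repeat F-box protein that targets chalcone synthase, the entry enzyme of flavonoid synthesis, for degradation, and had 4368 in soc1-2, against 2038, 3493 and 1771 in Col (1.29). AT5G46710, a PLATZ-type transcription factor gene, had 558 in soc1-2, against 232, 394 and 237 in Col (1.17). All 3 stood above the 3 Col arrays, with Col of experiment 2 nearest. AT2G25200 read 413 in soc1-2, against 264, 387 and 133 in Col (1.51). AT5G10695 read 297 in soc1-2, against 50.9, 295 and 107 in Col (1.32). For these last 2 genes soc1-2 barely exceeded Col of experiment 2, and it fell below that array in the values as deposited and after quantile normalization.

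The cold list held COR15A and COR15B, whose products protect chloroplast membranes during freezing, and the dehydrin genes COR47 and LTI30. COR15A (AT2G42540) had a signal of 13552 in soc1-2, against 157, 5025 and 3223 in Col (log2 difference 2.07). COR15B (AT2G42530) had 9961 in soc1-2, against 134, 3417 and 4620 in Col (1.11). Both were above every Col array, although Col of experiment 1 was more than 20 times lower than the other Col arrays. COR47 had 7111 in soc1-2, against 3246, 12516 and 5416 in Col (0.39), and LTI30 had 1033 in soc1-2, against 1200, 3852 and 786 in Col (0.39). These 2 lay within the wild-type range. Of the 14 genes of the list 4 were named and tested, 2 were at least 2-fold higher, against 0.674% of all tested probe sets, and the median was 0.75. This list too was chosen with earlier results of these data known, so its count is not support.

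Only 2 of 27 abscisic acid and drought genes were named and tested, and neither reached 2-fold. The linker histone gene HIS1-3 (AT2G18050) had 222 in soc1-2, against 368, 2344 and 126 in Col (log2 difference 0.73). The sugar transporter gene SAG29 (AT5G13170) had 79.0 in soc1-2, against 1116, 332 and 40.4 in Col (0.72). Both were higher than Col of experiment 3 and lower than the other Col arrays, and against the mean of the 3 Col arrays their median turned to −1.32. Among 21 salicylate defence genes 2 were tested, with differences of 0.49 for SAG101 and 0.21 for AT5G52810, both above the wild-type range, as were 20.2% of all tested probe sets.

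Genes raised by sugar shortage gave a mixed picture. Of 22 listed, 5 were tested, 2 were at least 2-fold higher (0.674% over all tested probe sets), and the median was 0.25. AT2G20670 read 2081 in soc1-2, against 1793, 3168 and 431 in Col (log2 difference 2.22), and AT3G15450 read 4002 in soc1-2, against 2643, 6316 and 1175 in Col (1.75). In both, Col of experiment 3 was the lowest of all 4 arrays and soc1-2 lay between Col of experiments 1 and 2. The soc1-101D array of experiment 3 also read above that Col array, by a log2 of 1.05 for AT2G20670 and 0.93 for AT3G15450. The other members were MCCA and MCCB, subunits of an enzyme of leucine breakdown, with 0.25 and 0.09, and AKINBETA1, a subunit of the SnRK1 energy-sensing kinase, with 0.14.

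AT2G20670 is one of a family of genes for proteins with a DUF506 domain, a family added to the lists after its values had been seen. Of 13 loci 6 were named and 5 tested, and 3 of these were at least 2-fold higher in soc1-2, against 0.674% of all tested probe sets, with a median log2 difference of 1.08. AT2G39650 alone lay above all 3 Col arrays, with 284 in soc1-2, against 122, 176 and 95.8 in Col (1.40). AT3G07350 had 1295 in soc1-2, against 1344, 1676 and 604 in Col (1.08). AT3G22970 and AT2G38820 had differences of 0.69 and 0.59. Col of experiment 3 was the lowest Col array for all 5, and against the mean of the 3 Col arrays the median was 0.22. The soc1-101D array of experiment 3 had a median of 0.57 over the same 5 against Col of experiment 3. AT3G07350 alone was negative there, at −0.40.

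**Figure D4:**
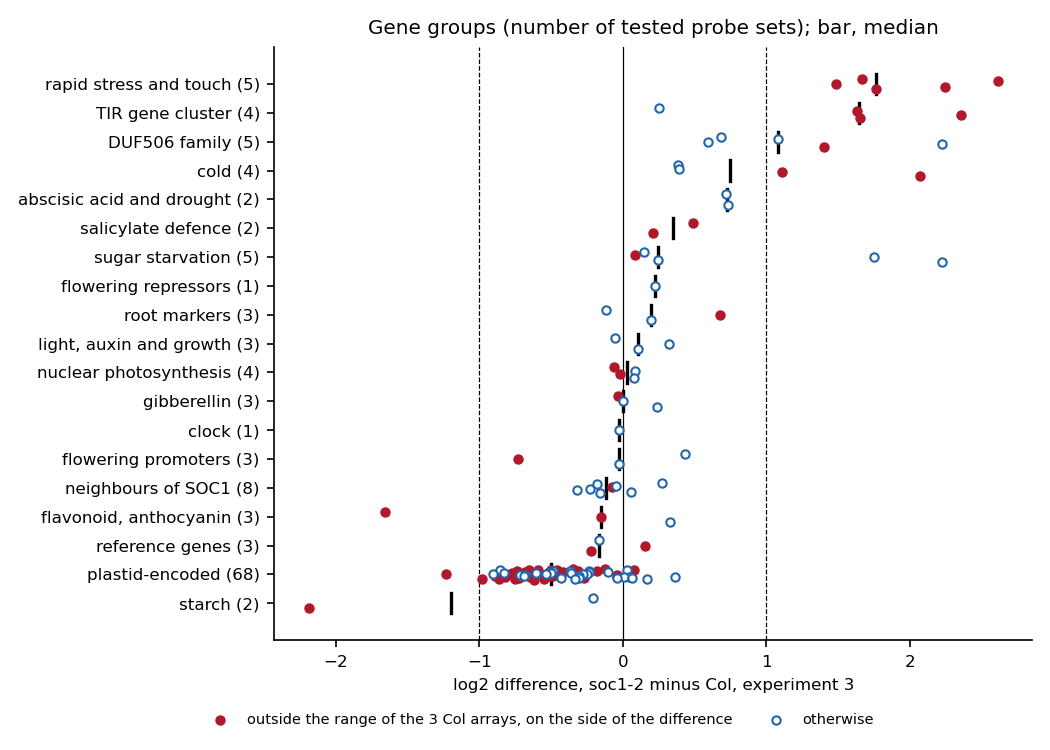
Log2 difference, soc1-2 minus Col of experiment 3, of each tested member of the gene lists, with the number of tested probe sets in brackets and the list median as a bar. Filled points lie outside the range of the 3 Col arrays on the side of their difference; the rapid stress list has all 5 points past 2-fold (dashed lines), while flowering promoters have a median of −0.03 and plastid-encoded genes of −0.50.

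Of the 19 lower probe sets, 12 had 1 gene name, and 10 of those lay below all 3 Col arrays. QQS (AT3G30720), a gene known from Arabidopsis alone whose product shifts the balance of starch and protein, had a signal of 85.0 in soc1-2, against 103, 90.3 and 455 in Col, a log2 difference of −2.19. Here Col of experiment 3 was the array that stood apart, and soc1-2 was close to the other Col arrays, above one of them after quantile normalization. DPE1, the other tested starch gene, had a difference of −0.21, and the median of the pair, −1.20, was 0.12 against the mean of the 3 Col arrays.

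Genes of a second kind had lower signals in soc1-2 than in each Col array by a wide margin, but these soc1-2 signals were dim. AT2G14255, which encodes a protein with ankyrin repeats and a palmitoyltransferase domain, had 14.5 in soc1-2, against 298, 223 and 109 in Col (log2 difference −1.92). AT3G09860 had 49.0 in soc1-2, against 311, 370 and 184 in Col (−1.57). AT2G31110, a gene of the trichome birefringence-like family of cell wall acetylation proteins, had 34.8 in soc1-2, against 482, 115 and 117 in Col (−1.33). For all 3 the lowest Col signal was more than 3 times that of soc1-2, and for AT2G14255 the soc1-2 signal lay under the pseudocount. With signals this low, the size of the log2 difference depends on the pseudocount. At a pseudocount of 0.5 times the median, 2 of the 14 probe sets 2-fold lower and below the Col range kept that call. None of these 3 genes was among them. By a narrower margin, AT5G26270 had 374 in soc1-2, against 1190, 719 and 782 in Col (−1.03), and AT1G56310 had 117, against 201, 229 and 258 (−1.02). Both fell short of 2-fold after quantile normalization, as did AT3G21670 and AT4G33380, described further on.

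AT4G14090 encodes a glucosyltransferase that decorates anthocyanins. Its signal was 8.93 in soc1-2, under the pseudocount, against 479, 125 and 69.5 in Col (log2 difference −1.65). The other tested genes of anthocyanin synthesis did not differ by this much. DFR had 118 in soc1-2, against 777, 139 and 90.4 in Col (0.33), within the wild-type range. UF3GT had 65.9 in soc1-2, against 354, 167 and 75.4 in Col (−0.15), a small difference but also below all 3 Col arrays. Of 25 flavonoid and anthocyanin genes, 3 were tested, and 1 was at least 2-fold lower, against 0.139% of all tested probe sets. Their median was −0.15 within experiment 3 and −1.14 against the mean of the 3 Col arrays.

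AT3G21670, which encodes the nitrate transporter NPF6.4, had a signal of 396 in soc1-2, against 9963, 1096 and 820 in Col (log2 difference −1.02). The wild-type arrays alone spanned more than 10-fold for this gene. AT4G33380 had 383 in soc1-2, against 437, 610 and 813 in Col (−1.05). Just short of 2-fold, AT4G30000 had a difference of −0.95, AT5G01790 of −0.94, AT3G26990 of −0.93 and AT5G57655, a xylose isomerase family gene, of −0.93, all below the 3 Col arrays. Inside the wild-type range lay AT5G02830 with 299 in soc1-2, against 966, 126 and 784 in Col (−1.34), and AT5G05250 with 313, against 479, 199 and 727 (−1.17).

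Transcripts of the plastid genome, which encodes parts of the photosynthetic complexes and of the plastid's own RNA polymerase and ribosomes, were for the most part slightly lower in soc1-2, with differences from −1.23 to 0.36. Of 69 probe sets 68 were tested. Of these, 60 had a negative log2 difference and 8 a positive one, with a median of −0.50. Over all 13648 tested probe sets 7316 were negative. Among the 68, 1, rpoC2, was at least 2-fold lower and none was 2-fold higher, against 0.139% and 0.674% of all tested probe sets. At least 1.5-fold lower were 28, against 1.86% of all tested probe sets. The soc1-2 signal lay below all 3 Col arrays in 37 and above them in 2, against 14.9% and 20.2% of all tested probe sets. The soc1-101D array of experiment 3 had a median of −0.52 over the same genes against the same Col array, so both mutant arrays of that experiment read below the Col array that they share. The tested nuclear genes of photosynthesis, RCA, LHCB4.1, LHCB4.2 and LHCB4.3, had differences from −0.06 to 0.09, with a median of 0.03.

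By complex, the medians were −0.67 for the 4 RNA polymerase subunits, −0.60 for the 6 ATP synthase subunits, −0.50 for the 7 large and −0.48 for the 8 small ribosomal proteins, −0.49 for the 5 photosystem I, −0.46 for the 9 NDH, −0.41 for the 15 photosystem II and −0.33 for the 6 cytochrome b6f subunits. Against the mean of the 3 Col arrays the median was 0.11 for the small and −0.12 for the large ribosomal proteins, −0.73 for photosystem I, −1.04 for NDH and −0.71 for photosystem II, while that of all plastid genes was −0.45. rpoC2, the beta'' subunit of the RNA polymerase, had 318 in soc1-2, against 616, 345 and 773 in Col (log2 difference −1.23). atpH, the membrane ring subunit of ATP synthase, had 1465 in soc1-2, against 7586, 4301 and 2910 in Col (−0.98). Both were below each wild-type array, rpoC2 by a narrow margin.

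Members of 1 complex did not differ alike. In ATP synthase, atpF had a difference of −0.86, while atpB had 0.01 and atpE 0.04. In photosystem II, psbD, which encodes the reaction centre protein D2, had 301 in soc1-2, against 5258, 891 and 539 in Col (−0.80), while psbA, for its partner D1, had 5095 in soc1-2, against 5206, 5576 and 4523 in Col (0.17). psaA, of the photosystem I reaction centre, had 792 in soc1-2, against 10457, 4944 and 1325 in Col (−0.73). rbcL, the large subunit of Rubisco, had 922 in soc1-2, against 2297, 1604 and 1453 in Col (−0.65). For psbD, psaA and rbcL the order of the Col arrays was the same, with experiment 1 highest and experiment 3 lowest. The highest difference of the 68 was that of ndhC, at 0.36. Of the mitochondrial genes, 7 of 23 probe sets were tested, with a median of −0.14 and none past 2-fold.

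**Figure D5:**
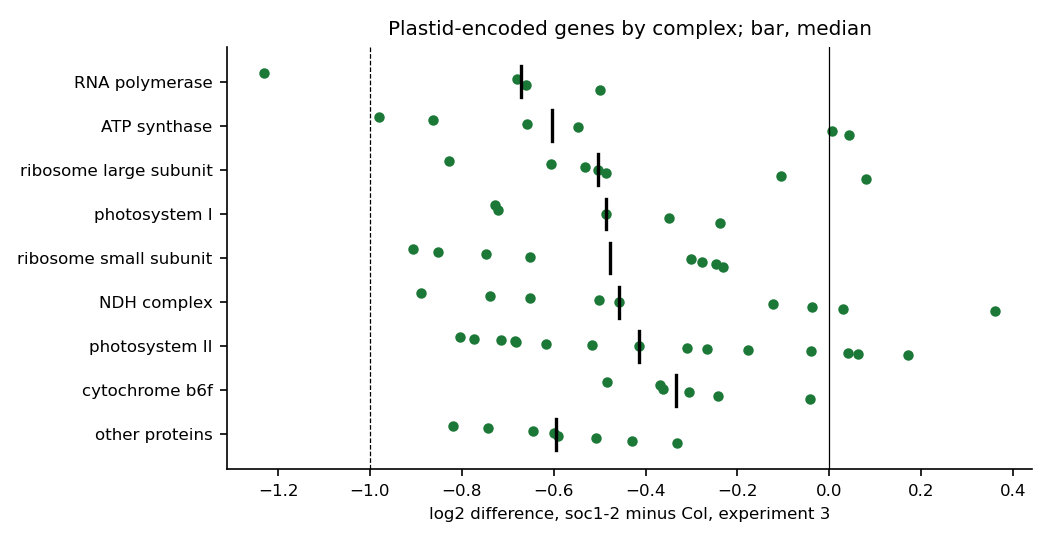
Log2 difference of each tested plastid-encoded gene, soc1-2 minus Col of experiment 3, grouped by complex. Of the 68 genes 60 lie below 0, against 7316 of all 13648 tested probe sets. Medians by complex run from −0.67 (RNA polymerase) to −0.33 (cytochrome b6f).

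Few genes of flowering could be compared. Of 26 flowering promoters 9 were named by the gene table and 3 of those were bright enough to be tested, none of them 2-fold different within experiment 3. LD (AT4G02560), a nuclear protein of the autonomous pathway, had 194 in soc1-2, against 316, 213 and 335 in Col (log2 difference −0.73). It lay narrowly below each wild-type array, as did 14.9% of all tested probe sets. FY (AT5G13480), an RNA 3′-end processing factor of the same pathway, had 228 in soc1-2, against 224, 290 and 164 in Col (0.43). GI (AT1G22770), which links the clock to day-length sensing, had 1014 in soc1-2, against 399, 3001 and 1032 in Col (−0.03). The floral repressor SMZ (AT3G54990), an AP2-type factor, had 353 in soc1-2, against 590, 233 and 299 in Col (0.22). FY, GI and SMZ lay within the wild-type range.

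The relatives of SOC1 were all among the dim probe sets left out of the counts. AGL42 had 22.5 in soc1-2, against 45.1, 53.0 and 19.8 in Col. AGL72 had 15.9 in soc1-2, against 40.2, 5.08 and 2.88 in Col. AGL71 had 4.04 in soc1-2, against 3.68, 6.50 and 5.01 in Col, and AGL19 had 30.5, against 46.2, 30.3 and 29.5. None of the 4 signals of soc1-2 lay outside the range of the Col arrays. Levels this near the pseudocount do not show whether a gene differed. AGL24, a MADS-box gene that acts together with SOC1, was dim too.

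Of 20 genes next to SOC1 by locus number, 8 were tested, none was 2-fold different, and the median was −0.12. Their differences ran from −0.32 (AT2G45700) to 0.27 (AT2G45750). Of the remaining lists, 3 tested gibberellin genes had a median of −0.00081, 3 light and auxin genes of 0.11, which was −0.46 against the mean of the 3 Col arrays, and 3 reference genes of −0.16. Root markers were checked because the balance of root and shoot can differ between batches of seedlings. PYK10, a root glucosidase, had 19546 in soc1-2, against 16352, 22022 and 21191 in Col (−0.12). EXPA18 had a difference of 0.20 and EXPA7, an expansin of root hairs, of 0.68, with 249 in soc1-2, against 127, 222 and 148 in Col. In all, 73 of the 413 genes of the lists were named on the array and 47 tested. The lists for floral organ identity, seed storage, nitrate, heat shock, jasmonate, and the shoot meristem and cell cycle had no tested member.

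Probe sets without a single gene name made up 55 of the 92 higher and 7 of the 19 lower ones, and the widest differences were among them. Such probe sets were common in the whole set, where only 7276 of the 13648 tested had 1 gene name. 247543_at read 2103 in soc1-2, against 97.0, 831 and 235 in Col (log2 difference 3.06, or 8.34-fold). 248448_at read 673 in soc1-2, against 109, 523 and 113 in Col (2.39), and 245731_at read 1556, against 131, 1150 and 290 (2.35). Each followed the order seen for STZ, with Col of experiment 2 nearest to soc1-2. Lowest was 267509_at, with 14.3 in soc1-2, against 8.26, 6.59 and 139 in Col (−2.24). It was under the pseudocount in soc1-2 and in Col of experiments 1 and 2, so the difference rests on Col of experiment 3. The same probe set read 2971, 2457 and 2553 on the 3 soc1-101D arrays. The gene table does not say which transcript it measures. 266385_at read 26.1 in soc1-2, against 830, 982 and 135 in Col (−1.77), and 267545_at read 122, against 512, 411 and 322 (−1.27), both below the wild-type range.

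The 2-fold threshold cut through values that were nearly equal. Just inside it, AT3G24480 was higher by a log2 of 1.00 and AT1G56310 and AT3G21670 were lower, both at −1.02. Just outside it, AT5G40020 and 261470_at were higher by 0.998 and 0.999, and atpH was lower at −0.98. AT3G24480 had 146 in soc1-2, against 304, 125 and 63.1 in Col, within the wild-type range.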

How the data were processed

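Total RNA of whole seedlings was biotin-labelled and hybridised to one-colour arrays, per the labels. The values deposited by the authors are linear intensities, 1 for each probe set on each array, made with software not given in the sources used here. Their 2% trimmed means were 495.5 to 496.2. Medians were 181.3 for soc1-2 and 193.7, 204.7 and 180.7 for Col of experiments 1, 2 and 3.

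With Python 3.11.15, pandas 2.3.3 and numpy 2.4.6, arrays were scaled to a median of 192.7, 19.3 was added and log2 taken. The dimmest 40% by mean over 7 arrays were left out. The calls are fold thresholds without a test. Gene names came from a table of platform annotation, and 13436 probe sets matched a locus of RefSeq TAIR10.1. Positions and sequences were not used here. Named genes were the 15 highest and 15 lowest outside the Col range, the 10 highest and lowest in any range, 5 each way without a single gene, up to 4 per list, SOC1 relatives, and 2 on each side of the threshold. Members and lists were chosen with earlier results of these data known. Fold counting was checked on simulated data, with planted changes larger than 2-fold and a narrower spread than the real arrays. That check covers the counting and does not show how reliable the 2-fold calls are.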

Additional observations from a re-analysis of the deposited data

How the results depend on the processing

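Counts at least 2-fold higher and lower were 92 and 19 (51 and 14 of them outside the Col range). The filter on dim probe sets and the choice of Col arrays moved them most. With a pseudocount of 0.5 times the median they were 58 and 6, with 2 lower ones outside the range. Without a filter they were 541 and 391 (214 and 326 outside), leaving out the dimmest 20% gave 298 and 181 (83 and 151), and leaving out the dimmest 60% gave 47 and 8 (26 and 6). Against the mean of the 3 Col arrays, with no replicate block, they were 230 and 241 (159 and 165), of which 45 and 9 were shared with the counts within experiment 3. Deposited values gave 90 and 19 (45 and 14 outside), and quantile normalization 78 and 17 (41 and 11). Without Col of experiment 1 or 2, those outside the remaining range were 57 to 74 higher and 15 to 16 lower. The comparison within experiment 3 is itself the paired one, with the experiment as the block. Against the mean of the 3 Col arrays, 22 of 120 named probe sets had the opposite sign, among them 245627_at, past 2-fold within experiment 3, at −2.80. Deposited values and quantile normalization each turned the sign of 1, and no other alternative did. The median of the starch pair was 0.12 against that mean. The causes were not tested. With 1 array of soc1-2, differences between plantings, RNA preparations or arrays cannot be told apart from the genotype.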

Other observations

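Further named genes with a 2-fold difference within experiment 3 belonged to none of the lists. AT5G61590, which encodes an ERF-type transcription factor, had a signal of 4196 in soc1-2, against 372, 2670 and 2060 in Col of experiments 1, 2 and 3 (log2 difference 1.02), above all 3. AT3G02480, a gene of the late embryogenesis abundant type, had 496 in soc1-2, against 21.5, 897 and 175 in Col (1.41), inside the wild-type range. AT1G19020 had 519 in soc1-2, against 109, 842 and 189 in Col (1.37), and AT2G27830 had 1511, against 427, 1594 and 659 (1.17), both again inside the range with Col of experiment 2 highest. AT5G19120 had 3998 in soc1-2, against 2994, 3081 and 1797 in Col (1.14), and AT5G14730 had 381, against 115, 154 and 166 (1.12), both above all 3 Col arrays. These genes were singled out after their values were seen.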
